A study of Ovis aries with 10 samples.

Results

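Oxytocin and vasopressin are the hormones of the posterior pituitary, and their signalling system is described here by 4 genes: the precursors OXT (gene identifier 443390) and AVP (443477), and the receptors OXTR (443138) and AVPR1A (100528010). They were picked by symbol from the 33775 genes of a read count table, with their luteal and follicular averages already known, so the difference of these 4 genes between phases is given as a description, and no test result is used to support it. The counts are of sequenced RNA from adult Ile-de-France ewes, and the tissue is the mediobasal hypothalamus, which includes the arcuate nucleus and the median eminence. There were 5 luteal libraries, from ewes in the phase when the corpus luteum secretes progesterone, and 5 follicular libraries, from ewes in the phase before ovulation. A library held RNA of 2 ewes of the same phase, combined at random in equal molar amounts, from 10 ewes a phase and 20 in all, so that every value below averages a pair of animals. No hormone treatment or surgery is named in the labels, and the series title frames the comparison as the effect of progesterone on this region.

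Each precursor is cut into the active peptide and a neurophysin, the carrier that accompanies it down the axon. The main sources are the magnocellular neurons of the supraoptic and paraventricular nuclei, whose axons cross the median eminence on the way to the posterior pituitary, and vasopressin is also made in the suprachiasmatic nucleus. The hormones act through receptors coupled to Gq, which raise intracellular calcium (OXTR, AVPR1A and AVPR1B), and vasopressin also acts through AVPR2, which is coupled to Gs and best known from the kidney. Oxytocin drives uterine contraction and milk ejection, and vasopressin drives water retention. In the sheep, oxytocin is also known as a product of the corpus luteum itself.

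Library totals ran from 28571863 to 42358557 reads in luteal and from 20644992 to 43193449 reads in follicular libraries. Markers of the labelled tissue were present: all 9 arcuate and ventromedial markers, among them POMC, NPY, KISS1 and GHRH, had reads in every library, and their summed level ran from 1283 to 1797 CPM in luteal and from 1305 to 2207 CPM in follicular libraries. CPM here is counts per 1e6 reads of a library's total after scaling by trimmed means (TMM). Pituitary markers were abundant too, with summed levels from 2344 to 4616 CPM in luteal and from 3168 to 4755 CPM in follicular libraries, all 6 having reads in each library except POU1F1, which had 0 in at least 1 follicular library. The main axis of difference between libraries, their first principal component, held 51.0% of the variance. Scores on it ran from -14.6 to 58.3 in luteal and from -61.2 to 48.1 in follicular libraries, and ribosomal protein genes took 4.49% to 6.48% of luteal reads and 4.32% to 8.45% of follicular reads. In bulk tissue, fewer cells of a type and less RNA per cell cannot be told apart.

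OXT reads averaged 26.0 ± 13.5 CPM in luteal and 84.9 ± 39.9 CPM in follicular libraries (SD, n = 5 each). Luteal libraries 1 to 5 had 33.9, 43.1, 21.8, 24.0 and 7.20 CPM of OXT, against 104.5, 45.0, 129.7, 104.9 and 40.3 CPM in follicular libraries 1 to 5. Follicular 1, 3 and 4 stood above every luteal library, follicular 2 lay just above the highest luteal library, and follicular 5 lay below luteal 2, so that the ranges overlapped through that 1 follicular library. Luteal 5 was the lowest of all 10. The fitted log2 fold change of luteal over follicular was -1.70 (SE 0.45), and 0.126% of the genes tested had a log2 fold change at least as low. Counting error was small beside this spread, since even luteal 5 held 306 OXT reads, with an exact 95% Poisson interval of 273 to 342 reads that covers counting error only.

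AVP followed the same order of phases with a wider spread. Its reads averaged 330.2 ± 236 CPM in luteal and 1109 ± 765 CPM in follicular libraries (SD, n = 5 each). Luteal libraries 1 to 5 had 522.5, 622.1, 221.8, 237.8 and 46.9 CPM of AVP, against 1358, 647.3, 1085, 2236 and 218.9 CPM in follicular libraries 1 to 5. Here too 4 of the 5 follicular libraries stood above all luteal ones, and follicular 5 lay just below luteal 3 and luteal 4. The fitted log2 fold change of luteal over follicular was -1.75 (SE 0.66), a level that 0.109% of the genes tested reached or passed. Together the precursors took 0.0560%, 0.0691%, 0.0265%, 0.0253% and 0.00589% of all reads in luteal libraries 1 to 5, against 0.135%, 0.0692%, 0.111%, 0.218% and 0.0276% in follicular libraries 1 to 5.

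**Figure D1:**
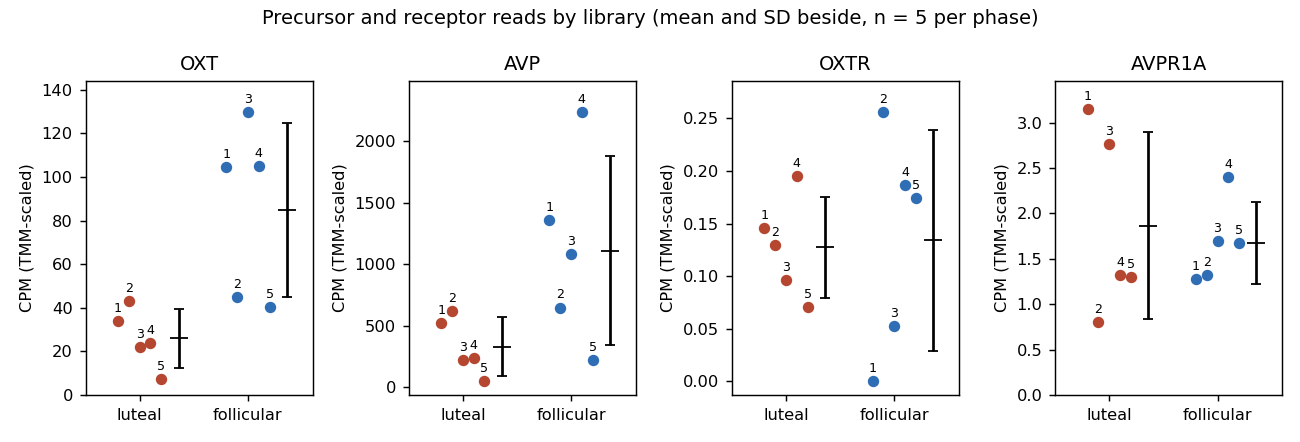
Reads of the 4 genes in each library, in CPM scaled by trimmed means, with luteal libraries on the left and follicular libraries on the right of each panel. Points are libraries labelled with their replicate number, and the bar beside each group is the mean with its SD (n = 5). For OXT and AVP follicular 5 is the only follicular library inside the luteal range, and for OXTR and AVPR1A the groups lie over each other.

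OXTR, the single known oxytocin receptor, was at the limit of detection. It had 6, 5, 3, 8 and 3 reads in luteal libraries 1 to 5, against 0, 7, 1, 5 and 8 reads in follicular libraries 1 to 5. Summed over a phase this was 25 reads, or 0.133 CPM without scaling (exact 95% Poisson interval 0.0861 to 0.196), in luteal libraries and 21 reads, or 0.149 CPM without scaling (0.0923 to 0.228), in follicular libraries. These intervals cover counting error only and leave out the variation between libraries. The 0 reads of follicular 1 still allow a level of up to 0.154 CPM (3 reads), above the levels measured in luteal 1, 2, 3 and 5 and in follicular 3. OXTR was the 1 of the 4 genes that did not pass the filter on low counts, and it entered no fit.

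AVPR1A, the vasopressin receptor of vessels, liver and brain, had few reads but passed the filter. It had 3.15, 0.802, 2.77, 1.32 and 1.29 CPM in luteal libraries 1 to 5, against 1.28, 1.32, 1.70, 2.40 and 1.68 CPM in follicular libraries 1 to 5. These rest on 31 to 129 reads a library in luteal and 25 to 77 in follicular libraries. The follicular range lay inside the luteal one: luteal 1 and luteal 3 were the highest of all and luteal 2 the lowest. The means were 1.87 ± 1.03 CPM in luteal and 1.67 ± 0.45 CPM in follicular libraries (SD, n = 5 each), with a log2 fold change of luteal over follicular of 0.15 (SE 0.37) that turned to -0.13 without luteal 1 and to -0.03 without luteal 3.

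By edgeR's quasi-likelihood test 0 of the 3 genes that passed the filter had an adjusted p under 0.05, as did 0 of all 18276 genes tested (0%). An unadjusted p under 0.05 was found for 2083 genes (11.4%), limma-voom called 0 genes and DESeq2 called 35 (0.192%), OXT among them and AVP and AVPR1A not. Ranges that do not overlap between phases were found for 0 of the 3, against 1.12% of all genes tested. Nothing is read from these counts, since the genes were chosen from this contrast. With the first principal component added to the model the log2 fold change of luteal over follicular was -0.95 for OXT and -0.53 for AVP, and without follicular 1 and follicular 3, the shallowest libraries, it was -1.28 for OXT and -1.65 for AVP.

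Within a phase, OXT and AVP moved together from library to library. In the luteal phase the order of the libraries was identical for both genes, from luteal 5 at the bottom through luteal 3, luteal 4 and luteal 1 to luteal 2 at the top. In the follicular phase libraries 5 and 2 were the lowest for both, and libraries 1, 3 and 4 exchanged places above them. With each gene's log2 CPM centred on its phase mean, Pearson's r was 0.93 over 10 libraries (two-sided exact permutation of libraries within phase, p = 0.00132, adjusted p = 0.0211 over 16 relations), and Spearman's rho was 0.88 (exact permutation p = 0.00368, adjusted p = 0.0589). The 5 libraries of a single phase are too few for a coefficient of their own. The relation leaned on the extremes: without luteal 5 and follicular 5, the libraries farthest from the median of OXT, r was 0.80 and no longer passed (exact permutation p = 0.0503, n = 8). With the first principal component taken out as well as phase, r was 0.82 (exact permutation p = 0.0151, n = 10). A high r was not particular to this pair. Among 16206 genes AVP ranked 16th by r with OXT, and the astrocyte marker ALDH1L1, at rank 755, still had r of 0.80. The oligodendrocyte marker MOG had r of 0.86 with AVP, at rank 193.

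AVP varied more steeply than OXT along this shared order. Between the highest and the lowest library AVP differed 13.3-fold in the luteal and 10.2-fold in the follicular phase, where OXT differed 5.99-fold in the luteal and 3.22-fold in the follicular phase. The pooled SD of log2 CPM within phases was 1.38 for AVP, 0.89 for OXT and 0.62 for AVPR1A, beside a median of 0.28 over the 16207 genes with a mean of at least 1 CPM. Larger values were found for 0.37% of those genes in the case of AVP, 1.55% in the case of OXT and 7.05% in the case of AVPR1A. The precursors were thus among the genes that differed most between mixes of ewes of the same phase.

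The number of AVP reads for each OXT read, which does not depend on scaling, was 15.4, 14.4, 10.2, 9.90 and 6.52 in luteal libraries 1 to 5, against 13.0, 14.4, 8.37, 21.3 and 5.43 in follicular libraries 1 to 5. The means were 11.3 ± 3.63 in luteal and 12.5 ± 6.10 in follicular libraries (SD, n = 5 each), and the luteal values lay inside the follicular range. This is a ratio of reads and not of transcripts, since reads also depend on transcript length. The library with the least OXT and AVP had the lowest ratio in each phase, luteal 5 and follicular 5. OXT and AVP lie next to each other in RefSeq's sheep assembly and their neurophysin exons are closely alike. How the authors treated reads that fit both genes is not given in the sources used here, and its part in the shared variation was not tested. AVP also overlaps the long noncoding RNA LOC121816177 there, which had 122 to 194 reads in luteal and 75 to 134 reads in follicular libraries, far fewer than AVP.

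**Figure D2:**
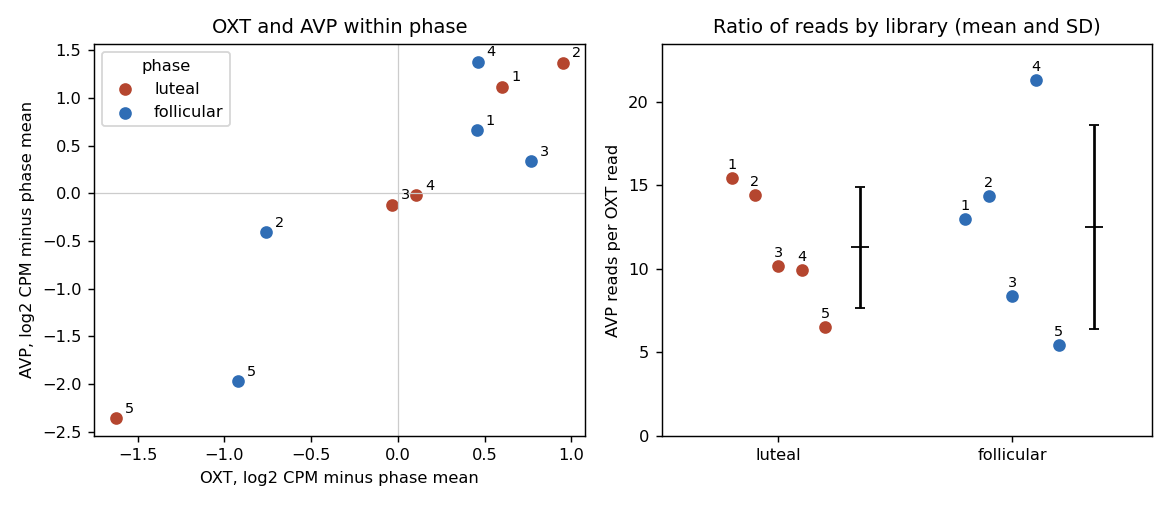
Left, log2 CPM of AVP against that of OXT, each minus its phase mean, with a point for each of 10 libraries labelled by replicate (Pearson's r 0.93). Right, AVP reads for each OXT read by library, luteal left of follicular, with the mean and SD beside the points (11.3 ± 3.63 in luteal and 12.5 ± 6.10 in follicular libraries); the 2 sets of points overlap over most of their range.

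No like relation was found for the receptors. Over the 10 phase-centred libraries r was 0.10 between OXT and AVPR1A, -0.15 between OXT and OXTR, 0.14 between AVP and AVPR1A, -0.0012 between AVP and OXTR and 0.13 between OXTR and AVPR1A, none of which passed (exact permutation, adjusted p from 0.976 to 0.998). OXTR had at most 8 reads a library, so nothing is read from its coefficients.

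Precursor levels were lower toward the high end of the main axis of the libraries, but no relation with it passed after adjustment. Within phases r with the first principal component was -0.79 for OXT (two-sided exact permutation, p = 0.00625, adjusted p = 0.05, n = 10) and -0.78 for AVP (exact permutation p = 0.0107, adjusted p = 0.057), and Spearman's rho was -0.76 for OXT and -0.65 for AVP (exact permutation, adjusted p = 0.16 for OXT and 0.343 for AVP). Without follicular 5 and luteal 5, r was -0.68 for OXT and -0.43 for AVP and the exact permutation p was 0.101 for OXT and 0.319 for AVP (n = 8). Follicular 1, 3 and 4 had the lowest scores, at -53.2, -61.2 and -35.7, and the most OXT. Luteal 5 had the highest score, at 58.3, and the least OXT and AVP. Ribosomal protein genes took 8.44%, 8.45% and 7.42% of reads in follicular 1, 3 and 4, the largest shares of all. At the high end they took 4.81% in luteal 3, 4.32% in follicular 5 and 4.49% in luteal 5, the smallest shares. The relation of this share with OXT and AVP was not tested. The library total had r of -0.43 with OXT and -0.41 with AVP, neither passing (exact permutation, adjusted p = 0.676 for both).

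**Figure D3:**
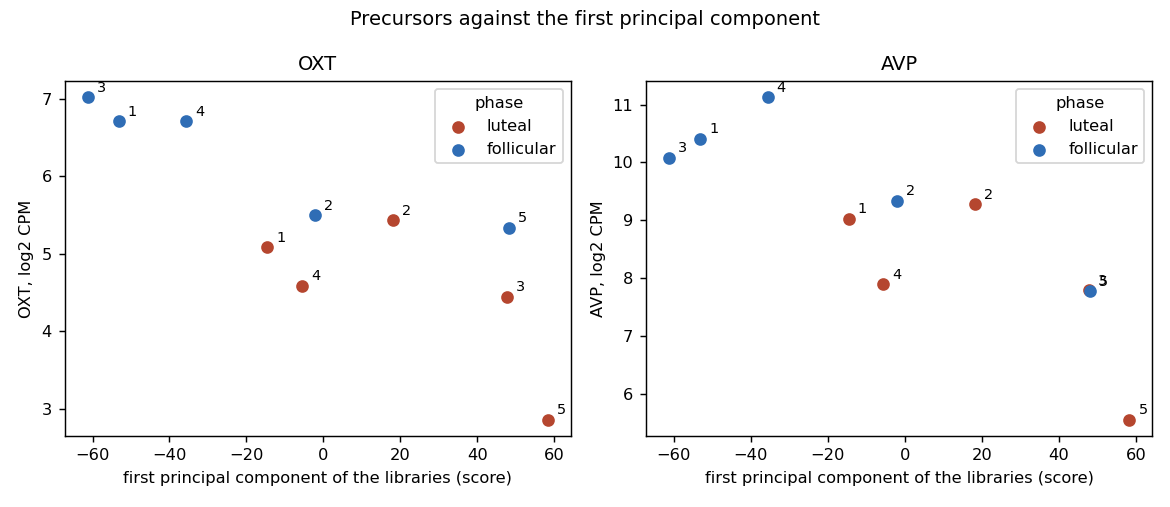
Log2 CPM of OXT (left) and AVP (right) against the score of each of 10 libraries on their first principal component, labelled by replicate and coloured by phase. Follicular 1, 3 and 4 sit at the low end of the component with high precursor levels and luteal 5 at the high end with the lowest; in the AVP panel luteal 3 and follicular 5 lie on the same spot.

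Some markers of the nuclei that make the hormones were near 0 reads in this tissue, and others were detected in every library. SIM1, a transcription factor that paraventricular and supraoptic neurons need to form in the mouse, had 2 to 4 reads in luteal libraries, and 0 in follicular 2, 3 and 4, 1 in follicular 1 and 6 in follicular 5. In the suprachiasmatic list VIP had 0 reads in at least 1 library of each phase, as did PROK2, and the list's summed level ran from 4.17 to 6.59 CPM in luteal and from 4.61 to 6.09 CPM in follicular libraries. The 6 paraventricular and supraoptic markers without AVP and OXT, mostly carried by ARNT2, summed to 132.9 to 141.8 CPM in luteal and 125.5 to 157.1 CPM in follicular libraries. Their score was the mean log2 CPM, centred on all libraries, over the listed genes that were tested, and so without SIM1. It was 0.03 higher in luteal libraries, with members on both sides of it (OTP higher and TRH lower, as given next). The suprachiasmatic score, without VIP, PROK2 and NMS, which were not tested, was 0.15 higher. Within phases no relation of these scores with OXT or AVP passed (r from -0.25 to 0.06, exact permutation, adjusted p from 0.888 to 0.980), nor did the arcuate and ventromedial score (r 0.53 with OXT and 0.31 with AVP, adjusted p = 0.321 and 0.888). Markers of other tissue also differed between phases, none passing. All 7 choroid plexus markers were higher in luteal libraries (median log2 fold change 0.58, 0 called by edgeR, all 7 with reads in every library), with summed levels from 37.5 to 120.8 CPM in luteal and from 25.4 to 58.2 CPM in follicular libraries. Their score was 0.71 higher in luteal libraries, the largest difference among the 10 marker scores. It was -0.23, 0.16, 0.59, 0.89 and 0.35 in luteal libraries 1 to 5, against -0.63, -0.48, -0.70, -0.30 and 0.34 in follicular libraries 1 to 5. The groups overlapped only through follicular 5, which lay above luteal 1 and luteal 2. All 4 oligodendrocyte markers were lower in luteal libraries (median log2 fold change -0.29, 0 called, all with reads in every library), with summed levels from 417.9 to 1033 CPM in luteal and from 607.2 to 1162 CPM in follicular libraries. Of the 6 pituitary markers 4 were lower and 2 higher in luteal libraries. CGA was lower with ranges that did not overlap (log2 fold change -0.60, SE 0.17, edgeR adjusted p = 0.426). The pituitary score was the lowest of its phase in luteal 5 (-0.27) and follicular 5 (-0.85), but follicular 3, richest in OXT, had -0.60. The relation of this score with OXT and AVP was not tested. The part of tissue sampling in the precursor levels was not tested beyond these values.

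OTP, a transcription factor of the same neurons that other hypothalamic cells also express, differed between phases in the direction opposite to the precursors without passing. It had 4.44, 8.04, 8.79, 6.06 and 8.71 CPM in luteal libraries 1 to 5, against 1.02, 4.47, 2.02, 1.95 and 8.77 CPM in follicular libraries 1 to 5. Follicular 1, 3 and 4, the libraries richest in OXT, had the least OTP, and follicular 5, poorest in OXT among the follicular ones, had the most. In the luteal phase the order was less clear, since luteal 2, richest in OXT and AVP, also had much OTP. Many other genes ran opposite to the precursors more strongly within phases. By r with OXT, OTP ranked 12336 of 16206 genes, highest first. The log2 fold change of luteal over follicular was 0.95 (SE 0.47; edgeR adjusted p = 0.428), which did not pass. TRH, the precursor of thyrotropin-releasing hormone and another gene of the same list, was lower in luteal libraries as the precursors were. It had 11.02, 7.68, 11.6, 12.7 and 9.60 CPM in luteal libraries 1 to 5, against 15.8, 15.9, 22.8, 22.2 and 15.3 CPM in follicular libraries 1 to 5. These ranges did not overlap, as was so for 1.12% of all genes, and the log2 fold change of luteal over follicular was -0.80 (SE 0.18; edgeR adjusted p = 0.426), which did not pass. Within phases its order was unlike that of the precursors in the luteal libraries, where luteal 2 had the least TRH.

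The other genes of the pathway were taken from 6 lists of 45 genes, of which 43 were matched and 41 tested. By edgeR 0 of the 41 passed over all genes tested in either direction (0% in the background). An unadjusted edgeR p under 0.05 was found for 6 of the 41, beside 11.4% of all genes tested. Of the 41, limma-voom called 0 (0% of all genes) and DESeq2 called 1, VGF (0.192% of all genes). Of the 41, 25 were higher and 16 lower in luteal libraries, with a median log2 fold change of 0.04 beside 0.01 over all genes. As a background for such counts, 8872 of all 18276 genes tested were lower in luteal libraries. Among the other receptors of the family, AVPR1B, known from pituitary corticotrophs, had 8 reads in luteal libraries, from luteal 1, 2 and 3, and 0 reads in all follicular libraries. AVPR2 had 5.44 ± 0.90 CPM in luteal and 5.21 ± 1.07 CPM in follicular libraries (SD, n = 5 each; edgeR adjusted p = 0.860).

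Of the 6 genes of peptide processing and breakdown that were tested, 4 were lower and 2 higher in luteal libraries. SCG5, the chaperone 7B2 of a prohormone convertase, had 1124 ± 184 CPM in luteal and 1479 ± 317 CPM in follicular libraries (log2 fold change -0.40, SE 0.17), and PCSK1N, which encodes the convertase inhibitor proSAAS, had 1417 ± 428 CPM in luteal and 2086 ± 654 CPM in follicular libraries (-0.56, SE 0.26). Neither passed (edgeR adjusted p = 0.426 for both). LNPEP, the aminopeptidase that degrades oxytocin and vasopressin, had 4.14 ± 2.2 CPM in luteal and 4.04 ± 1.68 CPM in follicular libraries (edgeR adjusted p = 0.971). CD38 and PCSK2 were not analysed here.

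Below the receptors, 12 of 15 genes of Gq signalling were higher and 3 lower in luteal libraries, with a median log2 fold change of 0.11 and 0 calls. Whether the list moved as a set was not tested. PRKCA, protein kinase C alpha, had 65.4 to 75.2 CPM in luteal and 76.1 to 83.6 CPM in follicular libraries. These ranges did not overlap (log2 fold change -0.19, SE 0.08; edgeR adjusted p = 0.426), as was so for 1.12% of all genes. ITPR2, a receptor for inositol trisphosphate that releases stored calcium, had 33.2 ± 4.50 CPM in luteal and 28.7 ± 2.19 CPM in follicular libraries (edgeR adjusted p = 0.432).

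Of 8 peptides that magnocellular neurons are known to make beside oxytocin and vasopressin, 6 were lower and 2 higher in luteal libraries, with a median log2 fold change of -0.33 and 0 calls by edgeR. VGF, a precursor of several secreted peptides, had 445.8, 478.4, 403.0, 1121 and 369.3 CPM in luteal libraries 1 to 5, against 1034, 1493, 1170, 1336 and 1389 CPM in follicular libraries 1 to 5. Its order within phases was unlike that of the precursors: luteal 4, which was in the middle for OXT and AVP, had by far the most VGF, and follicular 5, lowest for both, had the second most of its phase. NUCB2, the nesfatin precursor, had 38.3 to 45.4 CPM in luteal and 46.7 to 55.8 CPM in follicular libraries (log2 fold change -0.26, SE 0.09, edgeR adjusted p = 0.426). These ranges did not overlap, as was so for 1.12% of all genes.

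Of 7 tested factors of transcription and RNA handling known from oxytocin and vasopressin neurons, 5 were higher and 2 lower in luteal libraries, none passing. RASD1, a small GTPase known in the rat as a regulator of vasopressin transcription, had 18.3 ± 3.50 CPM in luteal and 14.7 ± 2.82 CPM in follicular libraries (edgeR adjusted p = 0.432). Of the 4 sex steroid receptors 3 were higher. PGR, the progesterone receptor, had 2.90 ± 0.94 CPM in luteal and 1.96 ± 0.28 CPM in follicular libraries (log2 fold change 0.56, SE 0.24; edgeR adjusted p = 0.426), and ESR1, oestrogen receptor alpha, had 26.3 ± 5.69 CPM in luteal and 21.3 ± 5.56 CPM in follicular libraries (edgeR adjusted p = 0.466).

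**Figure D4:**
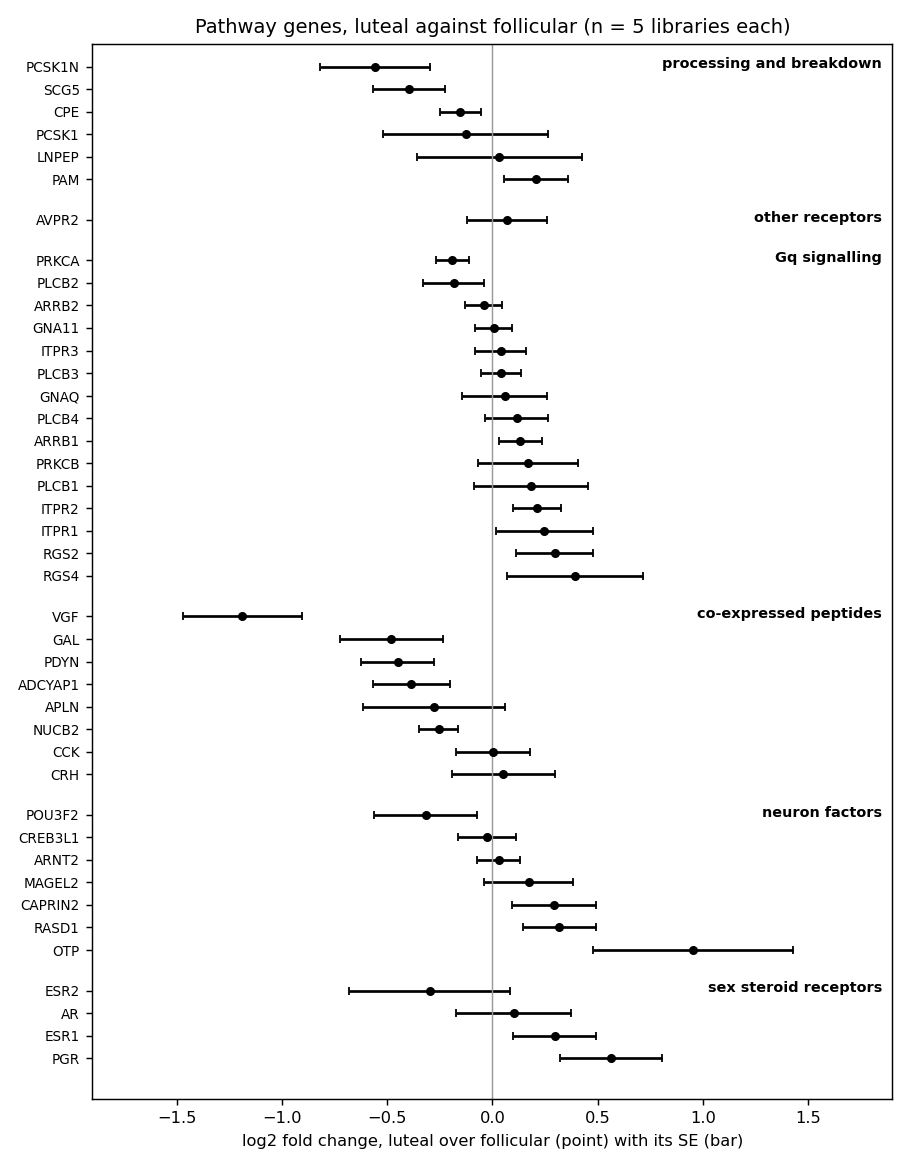
Log2 fold change of luteal over follicular with its fitted standard error for the 41 tested pathway genes, grouped by list (n = 5 libraries a phase). Most points lie within 0.5 of 0; VGF at -1.19 and OTP at 0.95 lie farthest out, and none passed edgeR over all genes.

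The genes whose levels followed each precursor most closely within phases were named by Pearson's r of phase-centred log2 CPM over the 10 libraries, among 16206 genes. For OXT they were PGF, LOC101113745, MSRA, RBP5 and KRT13, with r from 0.95 to 0.96, and AVP was 16th. For AVP they were POMC, TMEM140, LRFN1, LOC114109086 and LOC121819800, with r from 0.94 to 0.95, and OXT was 11th. The best of so many genes reach high values easily, and all share the libraries, their depth and their main axis. POMC, the precursor of melanocortins and beta-endorphin in arcuate neurons and the pituitary, had 1077, 1055, 1038, 939.6 and 404.4 CPM in luteal libraries 1 to 5, against 1346, 850.7, 1215, 1370 and 515.3 CPM in follicular libraries 1 to 5. As for OXT and AVP, the lowest library was luteal 5 in one phase and follicular 5 in the other. POMC had a log2 fold change of luteal over follicular of -0.23 (SE 0.30; edgeR adjusted p = 0.683), and its difference from that of OXT or AVP was not tested. Among the listed genes outside the nearest 5, VGF had r of 0.06 with OXT and 0.05 with AVP. OTP had -0.63 with OXT (rank 12336 of 16206, highest first) and -0.67 with AVP (rank 12954), so many genes had a lower r. These are descriptions of these libraries.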

How the data were processed

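The authors deposited whole-number read counts per gene, not normalised, in 1 table of 33775 genes and 10 libraries. Per the labels' protocols, TriReagent served for extraction and the kit was TruSeq stranded mRNA. Counting with featureCounts 2.0.0, alignment tools TopHat2 2.1.1 with Bowtie2 2.3.5.1, and bcl2fastq 2.20, SAMtools 1.9 and FastQC are listed in the submitters' processing notes, with no settings. The build, the strand setting and the handling of reads that fit several genes are not given in the sources used here. Genes were matched by symbol, or by identifier through RefSeq's sheep gene table, which held 94.4% of the identifiers and was used for names and neighbours only.

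Counts were fitted in R 4.3.3 with edgeR 4.0.16 (quasi-likelihood F-test, two-sided, phase as the only term) after filterByExpr (minimum count 10, minimum total 15) and TMM scaling, with Benjamini-Hochberg adjustment over 18276 genes and a threshold of 0.05. Log2 CPM used a prior count of 2. Relations were tested by all 14400 pairings within phase. The 4 genes, the lists and the alternatives were chosen with earlier results of these data known. Always named were the members, the other receptors, LNPEP, CD38, SIM1 and OTP, then the 2 genes of smallest p in each pathway list and the 5 nearest in pattern to each precursor; other markers entered as lists. VGF, OTP, TRH and POMC were given by library after their values were seen. A further gene planned for the signalling list was left out of it and is not reported here. The alternatives were RLE scaling, no filter, 1 CPM in 5 libraries, the replicate number as a block, DESeq2 1.42.0, voom of limma 3.58.1, the first principal component in the model, and leaving out libraries. No 2 libraries agreed within sampling noise (smallest chi-square per degree of freedom 12.8). The tests were checked on simulated data with independent libraries. That check does not cover variation that libraries share. Since the ewes of each mix differ, p-values reflect variation between such mixes.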

Additional observations from a re-analysis of the deposited data

How the results depend on the processing

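The log2 fold change of luteal over follicular stayed negative for OXT (-1.96 to -0.95) and AVP (-2.11 to -0.53) under all 18 alternatives, the values nearest 0 coming with the first principal component in the model. Leaving out a single library gave -1.96 to -1.46 for OXT, -2.11 to -1.32 for AVP and -0.13 to 0.34 for AVPR1A, whose sign also turned with limma-voom (-0.02). OXTR gave no value but without the filter (-0.16). The number of genes called was 0 by edgeR, 35 by DESeq2 (19 higher and 16 lower in luteal) and 0 to 1 with a library left out; the 1 gene came without luteal 4. Of pathway genes DESeq2 called 1, VGF, and leaving out libraries gave 0 to 1, the 1 again without luteal 4. The cause of these changes was not tested. The replicate numbers name mixes drawn at random, and the same-numbered libraries deviated together with correlations from -0.33 to 0.63. For 4 of 10 libraries the closest library of the other phase had the same number. Whether that is more than expected at random was not tested. With the replicate block edgeR called 0 genes, and the within-phase r of OXT and AVP was 0.87 without passing (exact permutation p = 0.0614); that fit leaves fewer degrees of freedom. With a library left out this r ran from 0.86 to 0.96 (exact permutation, unadjusted p from 0.000347 to 0.0066). These p-values were not adjusted over the 16 relations. The AVP to OXT read ratio with a library left out ran from 10.3 to 12.5 in luteal and from 10.3 to 14.3 in follicular libraries. Depth limits OXTR and AVPR1B, with at most 8 and 5 reads a library.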
